A study of Rattus norvegicus with 24 samples.

Results

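Genes of oxidative phosphorylation encode the subunits of the respiratory chain and of ATP synthase. Their probe sets were taken from the array annotation as those with a single gene symbol that names a subunit of complex I (Nduf with the letter a, b, c, s or v and a number), complex II (Sdha, Sdhb, Sdhc and Sdhd), complex III (Uqcr symbols and Cyc1), complex IV (Cox4 to Cox8) or complex V (Atp5), with assembly factors left out. There were 89 such probe sets of 31099 on the array, for 80 of its 14217 single symbols, and 1 of these, Cox6c-ps1, is a pseudogene. A filter on low signals kept 87 of the 89 probe sets and 79 of the symbols, and it removed Cox7b2 and 1 of the 3 Atp5if1 probe sets. By complex, the kept probe sets numbered 38 for complex I, 5 for complex II, 9 for complex III, 16 for complex IV and 19 for complex V. A further 7 probe sets carried a second symbol as well, most of them of a like-named copy or pseudogene, and were not counted as members. They were the only probe sets for Atp5mc1, Atp5mc2, Cox7a2, Uqcrb, Ndufs5 and Ndufa10, while Cox5a also had a probe set of its own.

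The study asked whether paced mating, in which the female controls the timing of contacts, alters gene expression in the midbrain of adult female Long-Evans rats, and whether the ovaries and adrenals matter for it. RNA of tissue labelled midbrain was hybridized to 24 Affymetrix rat expression arrays. Of these, 12 were from gonadally intact rats in proestrus, 6 from ovariectomized (OVX) rats and 6 from ovariectomized and adrenalectomized (OVX/ADX) rats, and both operated groups had been primed with estradiol benzoate. The intact arrays fall into 2 sets by title, 6 named with a bare number (number-named) and 6 named with the word Intact (Intact-named). In every set of 6, 3 rats were paced mated and 3 controls saw the mating chamber alone. The published methods describe 6 intact rats for the arrays, 3 paced mated and 3 chamber-exposed, whereas 12 arrays are labelled as intact. Whether the intact sets are different animals is stated in neither the labels nor the methods. The 12 intact arrays may therefore not be 12 rats, and the p-values given here reflect only array-to-array spread, which may be technical.

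Signals are log2 values in which 1 unit is a doubling. The lowest signal of an array was 3.58 to 3.65 in the number-named, 2.30 to 2.39 in the Intact-named and OVX, and 3.38 to 3.43 in the OVX/ADX arrays. These 3 ranges were taken as 3 separately normalized runs, an inference from the signals that the labels do not state. Tests were therefore made within runs or with the set as a term. The labelled tissue was not borne out by its markers on every array. After quantile normalization of all 24 arrays together, the median signal of 7 markers of midbrain dopamine neurons was 8.73 to 9.85 on the number-named and 8.33 to 9.31 on the OVX/ADX arrays. It was 5.76 to 7.23 on the Intact-named arrays and 5.79 to 8.49 on the OVX arrays, where the median of 8 markers of cortex and hippocampus was 8.27 to 9.30 against 6.55 to 7.51 elsewhere. Arrays 2541 and 2530, labelled OVX/ADX, carry title numbers like those of the number-named intact arrays. Markers of the anterior pituitary reached a median of 11.2 on 1 OVX/ADX array. On the number-named arrays they ranged from 6.13 to 10.9 and were lower in rats labelled paced, with an unadjusted p under 0.05 for 8 of 8 (limma). The paper gives the opposite direction, with pituitary hormone genes up-regulated in paced mated intact rats. In these samples of whole tissue, fewer cells of a type and less RNA per cell cannot be told apart.

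Mitochondria pass electrons from NADH through complex I, or from succinate through complex II, to ubiquinone, on through complex III to cytochrome c, and through complex IV to oxygen. Complexes I, III and IV pump protons, and complex V uses the gradient to make ATP, which neurons spend mainly on restoring ion gradients after firing. Most subunits are made from genes active in every cell, but a few subunits of complex IV exist as pairs, a widespread form and a form of heart and muscle (Cox6a2, Cox7a1, Cox8b), of lung (Cox4i2) or of testis (Cox6b2 and Cox7b2). Ndufa4, first assigned to complex I, is now counted with complex IV, and Ndufa4l2 is its paralogue that is induced by low oxygen. In the counts, medians and figures by complex given here, both are placed with complex I by their symbols.

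Because nuclear respiratory genes are known for shared promoter elements, their promoters were searched as a description of the set. RefSeq promoters on the GRCr8 assembly, 300 bases with 250 before and 50 after the start, matched 71 of the 80 genes. The ETS motif CCGGAAG, bound by GABP, was found on either strand in 20 of the 71 (28.2%), against 8.75% of 33469 promoters of the same length. The YY1 motif AAGATGGC was found in 16 (22.5%, against 3.17%), and the NRF1 motif GCATGCGC in 7 (9.86%, against 2.47%). In Atp5me, NRF1 matches on the opposite strands overlap. At least 1 of the ETS, NRF1 and YY1 motifs was present in 32 of 71 (45.1%, against 13.3% of all promoters), and Atp5me and Ndufa6 held all 3. The TATA motif TATAAA was found in 8 (11.3%, against 14.2%). The median promoter of the set had 20 CG dinucleotides, against 7 over all promoters. A match describes the letters of these windows and is not a measured site.

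Below are 120 bases before and 25 after the start for 7 genes, from RefSeq, read 5′ to 3′ on the strand of the gene, with matches to the ETS, NRF1, YY1 and TATA motifs in capitals. Atp5me and Ndufa6 are shown as the promoters with all 3 respiratory motifs, Uqcrc2 for its paired ETS matches, Sdhc for the smallest p between intact and OVX arrays, and Cox8a, Cox8b and Ndufa4l2 as a widespread and 2 restricted forms whose signals are given later.
Atp5me (GRCr8 chr14:1464740-1464884, plus strand): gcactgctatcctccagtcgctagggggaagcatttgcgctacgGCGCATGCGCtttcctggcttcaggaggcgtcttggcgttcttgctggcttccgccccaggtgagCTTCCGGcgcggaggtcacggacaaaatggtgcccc
Ndufa6 (GRCr8 chr7:115750293-115750437, minus strand): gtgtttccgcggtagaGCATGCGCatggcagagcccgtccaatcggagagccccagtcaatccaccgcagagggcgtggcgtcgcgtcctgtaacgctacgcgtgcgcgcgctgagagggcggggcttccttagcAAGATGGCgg
Uqcrc2 (GRCr8 chr1:184599120-184599264, plus strand): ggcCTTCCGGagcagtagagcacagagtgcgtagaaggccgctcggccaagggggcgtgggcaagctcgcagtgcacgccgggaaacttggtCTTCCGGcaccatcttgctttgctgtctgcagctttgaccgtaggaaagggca
Sdhc (GRCr8 chr13:86098001-86098145, minus strand): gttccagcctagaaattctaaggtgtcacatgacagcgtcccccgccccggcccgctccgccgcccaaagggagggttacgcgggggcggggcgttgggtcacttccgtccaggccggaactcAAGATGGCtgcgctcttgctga
Cox8a (GRCr8 chr1:213833599-213833743, minus strand): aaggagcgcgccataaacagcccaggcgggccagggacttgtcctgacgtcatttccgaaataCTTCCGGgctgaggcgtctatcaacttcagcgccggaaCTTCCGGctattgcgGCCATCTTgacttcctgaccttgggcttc
Cox8b (GRCr8 chr1:205408249-205408393, minus strand): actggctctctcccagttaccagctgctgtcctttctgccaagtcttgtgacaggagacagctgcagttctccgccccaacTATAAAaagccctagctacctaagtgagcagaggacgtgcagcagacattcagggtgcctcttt
Ndufa4l2 (GRCr8 chr7:65242049-65242193, plus strand): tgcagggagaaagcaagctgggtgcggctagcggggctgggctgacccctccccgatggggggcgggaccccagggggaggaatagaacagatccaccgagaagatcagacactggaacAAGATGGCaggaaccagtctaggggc

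Cox8a held ETS matches that begin 57 and 19 bases before the start and a YY1 match that spans the start. In Cox8b none of the ETS, NRF1 and YY1 motifs was found in the 300 bases, which held 5 CG dinucleotides against 16 in Cox8a, and a TATAAA began 39 bases before the start. Sdhc and Ndufa4l2 each held a YY1 match at the start. The YY1 match of Atp5me, 183 bases before the start, and the ETS match of Ndufa6, 190 bases before it, lie upstream of the bases shown.

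Most members were among the brightest probe sets of every array, and a small group was dim. In the number-named arrays 70 of the 89 lay above the 90th percentile of the array, with a median at the 97.3rd percentile, and 12 lay below the 50th. A probe set's brightness also reflects its probes, so these percentiles place a probe set on the array and do not rank the RNAs. Complexes II and III had no member below the 50th percentile. Those below the 50th in at least 1 set of arrays, seen in the plot of percentiles by complex, were Ndufa4l2, Cox4i2, Cox6a2, Cox6b2, Cox7a1, Cox7b2, Cox8b and the pseudogene Cox6c-ps1, and dimmer probe sets of Ndufa9, Ndufv3, Atp5if1, Atp5me and Atp5po. Since no detection calls were used here, a dim probe set may not be above background.

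**Figure D1:**
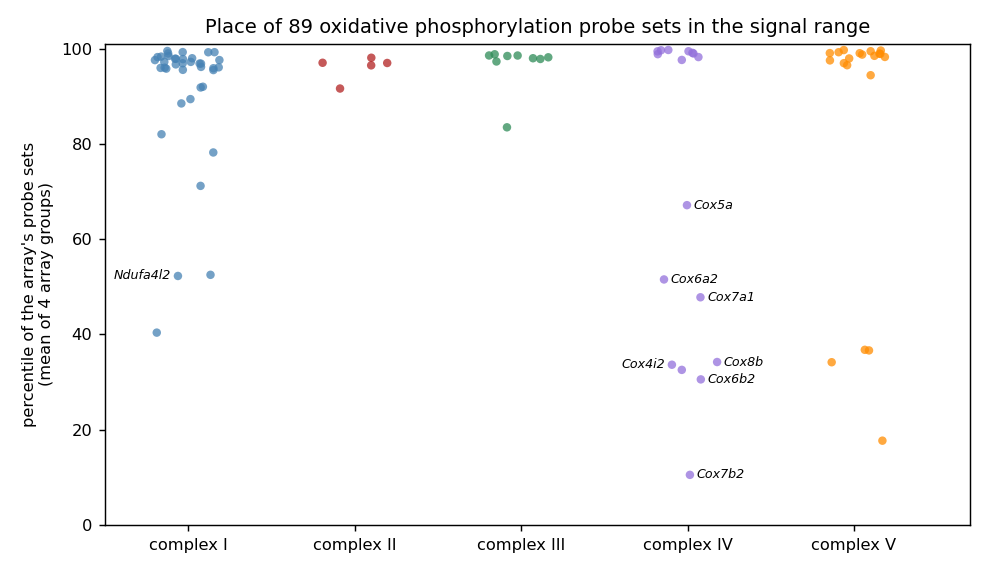
Place of the 89 probe sets on the arrays, by complex. Each point is 1 probe set, the vertical axis is the percentile of its signal among all probe sets of the array, averaged over the 4 array sets, and the labelled points are tissue-restricted forms and the single-symbol Cox5a probe set, most of which sit below the 70th percentile while the bulk of each complex sits above the 90th.

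Core subunits differed little between arrays of the same set. Cox4i1, the widespread form of a regulatory subunit of complex IV, had a signal of 13.28 ± 0.05 (SD, n = 6) in number-named, 13.28 ± 0.07 in Intact-named, 13.34 ± 0.03 in OVX and 12.98 ± 0.02 in OVX/ADX arrays. Atp5f1b, the catalytic subunit of ATP synthase, had 12.90 ± 0.06, 13.26 ± 0.09, 13.37 ± 0.03 and 12.55 ± 0.03 in the same order. Ndufv1, the subunit that takes electrons from NADH, had 11.28 ± 0.06, 11.69 ± 0.04, 11.70 ± 0.03 and 11.08 ± 0.05. For Uqcrc1, a core protein of complex III, the values were 11.89 ± 0.05, 12.21 ± 0.09, 12.19 ± 0.05 and 11.48 ± 0.03. The steps between sets cross the separately normalized runs, whereas the Intact-named and OVX arrays share one, and there the intact minus OVX differences were −0.06 for Cox4i1, −0.11 for Atp5f1b, −0.0031 for Ndufv1 and 0.02 for Uqcrc1.

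Over all members the median SD within a set of arrays was 0.0714, and over the 27035 kept probe sets it was 0.131. An SD over 0.2 was found for 4 of 87 members (4.60%) and 19.2% of all kept probe sets. Among the 1564 kept probe sets with a mean signal between the quartiles of the members (10.7 to 12.3), the median SD was 0.0939, and the 43 members in that range had 0.0682. The 4 members over 0.2 were Cox8b (0.59), Cox6a2 (0.45), the dimmer of the Uqcrc2 probe sets (0.41) and Ndufa4l2 (0.22), and the single-symbol Cox5a probe set followed with 0.19. These 5 were singled out after their values were seen.

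Paced mating was compared with chamber exposure first in the number-named intact arrays, 3 against 3. None of the 87 members passed an adjusted p of 0.05 (limma, Benjamini-Hochberg over all kept probe sets; 0.0444% of all kept probe sets passed), and 0 had an unadjusted p under 0.05 (9.33% of all). The median difference over the 79 genes was 0.02 and that over all kept probe sets 0.01. Differences of the members ran from −0.12 to 0.11, and the 95% confidence interval lay within a 1.25-fold change in either direction for 86 of 87, against 74.4% of all kept probe sets. Among brightest probe sets of each gene the smallest p-values belonged to Cox7a1, Ndufs3, Ndufb6, Ndufa5 and Cox6c-ps1, whose differences were 0.06 to 0.09. For Cox7a1, the muscle form of a complex IV subunit, the difference was 0.09 ± 0.06 (SE), with an adjusted p of 0.675 in limma.

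In the Intact-named arrays 0 of 87 members passed the adjusted threshold (0.0148% of all kept probe sets passed), and 4 had an unadjusted p under 0.05, 2 higher and 2 lower in paced rats (8.00% of all). The spread was wider here, and the interval of 57 of 87 members lay within a 1.25-fold change, against 27.4% of all. Ndufa4l2, the paralogue induced by low oxygen, had 7.25, 7.20 and 6.91 in paced and 6.41, 6.61 and 6.31 in chamber-exposed rats. Every paced array was above every chamber array, with a difference of 0.68 ± 0.13 (SE), a fold of 1.60 and an adjusted p of 0.370 in limma. The single-symbol Cox5a probe set, for a subunit of complex IV, had 8.51, 8.34 and 8.60 in paced and 9.05, 8.83 and 8.96 in chamber-exposed rats, again without overlap. In this set 16.1% of the members and 13.9% of all kept probe sets had no overlap between paced and chamber arrays. Its difference was −0.46 ± 0.11 (SE; limma adjusted p = 0.417). The brighter Cox5a probe set, which also carries a second symbol, differed by −0.05 ± 0.09, and whether the probe sets differ from each other was not tested. The others with an unadjusted p under 0.05 were Ndufb10, of complex I, at 0.23 ± 0.09 and a dimmer Atp5if1 probe set, for the inhibitor of ATP synthase, at −0.38 ± 0.14. Cox4i2 and Atp5mg followed at 0.27 ± 0.12 and −0.24 ± 0.11.

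In the number-named set Ndufa4l2 had 7.91, 8.17 and 8.28 in paced and 8.04, 7.99 and 8.14 in chamber-exposed rats, and the groups overlapped. The difference between the intact sets in the mating effect, number-named minus Intact-named, was −0.62 ± 0.17 for Ndufa4l2 (SE, limma adjusted p = 0.213). For the single-symbol Cox5a probe set it was 0.43 ± 0.14 (adjusted p = 0.282), and for the brighter one of 2 symbols 0.06 ± 0.11. In that test 0 of 87 members passed the adjusted threshold (0.0814% of all kept probe sets), 3 had an unadjusted p under 0.05 (10.6% of all), and the third was Uqcr11, a small subunit of complex III, with 0.20 ± 0.09. Atp5mg and Ndufb10 followed, with 0.25 ± 0.11 and −0.21 ± 0.10. With both intact sets in 1 fit of 12 arrays, with the set as a term, 0 of 87 members passed (0% of all kept probe sets), and 2 had an unadjusted p under 0.05 (7.72% of all). These were Ndufa4l2 at 0.37 ± 0.12 and the single-symbol Cox5a probe set at −0.25 ± 0.09, followed by Ndufb10, Ndufa6 and Ndufs8 at 0.10 to 0.13. The brighter Cox5a probe set differed by −0.02 ± 0.05.

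In OVX rats 0 of 87 members passed the adjusted threshold (0% of all kept probe sets), and 1 had an unadjusted p under 0.05 (2.42% of all). That gene was Cox8b, the heart and muscle form of a small complex IV subunit. Its signals were 6.05, 5.84 and 6.29 in paced rats and 7.45, 6.89 and 7.71 in chamber-exposed rats. The paced arrays were all below the chamber arrays, by 1.29 ± 0.22 (SE) on the log2 scale, a ratio of paced to chamber of 0.410, with an unadjusted p of 0.000505 and an adjusted p of 0.955 in limma. Such a lack of overlap was found for 4.60% of the members and 6.29% of all kept probe sets in OVX rats. In the Intact-named set, of the same run, Cox8b did not split by mating: it was 8.10 and 7.75 on arrays Intact-1 (paced) and Intact-2 (chamber) and 6.04 to 6.48 on the remaining 4. Of 7 markers of muscle, 0 had an unadjusted p under 0.05 in the OVX comparison, and their median signal was 5.37 to 5.69 on the OVX arrays after quantile normalization. Uqcrfs1, the Rieske iron-sulfur protein of complex III, differed by 0.15 ± 0.08, and Ndufv3 and Ndufa1 by −0.11 ± 0.08 and −0.08 ± 0.07. Cox6a2, another muscle form, differed by 0.32 ± 0.30, and without array OVX-6 by −0.05.

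In OVX/ADX rats 0 of 87 members passed the adjusted threshold (0% of all kept probe sets), and 1, a dimmer Ndufv3 probe set at 0.16 ± 0.05, had an unadjusted p under 0.05 (2.47% of all). The differences of the members ran from −0.17 to 0.16, and 83 of 87 intervals lay within a 1.25-fold change, against 76.4% of all. Among brightest probe sets the smallest p-values belonged to Ndufa6 (−0.17 ± 0.09), Cox4i2 (−0.09 ± 0.06), Uqcr10 (−0.06 ± 0.05), Ndufa4l2 (−0.06 ± 0.05) and Uqcrfs1 (0.08 ± 0.07), each ± SE. Cox8b was between 4.80 and 4.93 on all 6 arrays. Without array 2541, 0 members passed and 3 had an unadjusted p under 0.05 (4.21% of all kept probe sets), and without 2530 these counts were 0 and 1 (4.47% of all).

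**Figure D2:**
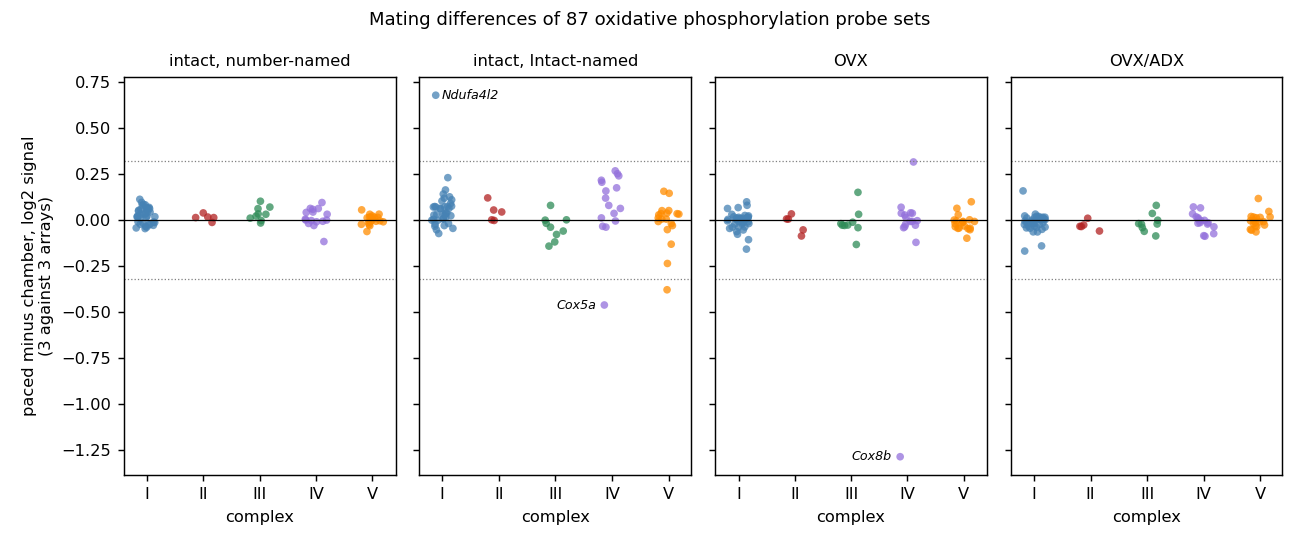
Differences between paced and chamber-exposed rats for 87 probe sets in the 4 array sets, by complex. Each point is 1 probe set, the vertical axis is the mean of 3 paced minus the mean of 3 chamber arrays in log2 signal, and dotted lines mark a 1.25-fold change. Ndufa4l2 and the single-symbol Cox5a probe set in the Intact-named and Cox8b in the OVX arrays stand apart, and none passed the adjusted threshold.

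Over all 24 arrays, with the set as a term, 0 of 87 members passed (0% of all kept probe sets) and 2 had an unadjusted p under 0.05 (4.19% of all). The 2 were Ndufa4l2 at 0.19 ± 0.08 and the single-symbol Cox5a probe set at −0.15 ± 0.07 (SE), with an adjusted p of 0.969 for both in limma. The brighter Cox5a probe set of 2 symbols differed by −0.01 ± 0.03. Atp5pf, Cox7b and Ndufb10 followed at 0.06 to 0.07. The median difference of the 79 genes was 0.0047, and the interval of 83 of 87 members lay within a 1.25-fold change, against 92.2% of all kept probe sets. By complex, the median difference was 0.01 for complex I, 0.0032 for II, −0.02 for III, 0.02 for IV and −0.0046 for V.

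Intact and OVX rats were compared in the Intact-named and OVX arrays, which share a run by their lowest signals, with mating as a term. The titles carry a different leading code for each of these gland groups, and the labels do not say what it stands for. The OVX rats had also had surgery and estradiol benzoate, while the intact rats were in natural proestrus. Ovariectomy, surgery, priming, cycle stage and whatever the code marks cannot be told apart. None of the 87 members passed the adjusted threshold, where 1.44% of all kept probe sets did, and 9 had an unadjusted p under 0.05, 1 higher and 8 lower in intact rats (21.0% of all). The median difference of the 79 genes was −0.0031. The smallest p-values were found for Sdhc and Sdha, subunits of complex II, which also works in the tricarboxylic acid cycle. Sdhc ran from 11.64 to 11.79 in intact rats, with a median of 11.70, and from 11.81 to 11.92 in OVX rats, with a median of 11.87, so the groups did not overlap. No overlap was found for 2.30% of the members and 2.64% of all kept probe sets. The difference of Sdhc was −0.15 ± 0.05 (SE; limma adjusted p = 0.121). Sdha, which carries the flavin, ran from 11.17 to 11.38 with a median of 11.26 in intact rats and from 11.35 to 11.48 with a median of 11.43 in OVX rats, a difference of −0.16 ± 0.05 (adjusted p = 0.121). All 5 probe sets of complex II had differences below 0, from −0.16 to −0.06, and 2 of them had an unadjusted p under 0.05. Complex II was singled out after its values were seen.

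Of the remaining members with an unadjusted p under 0.05, Atp5f1a, the alpha subunit of ATP synthase, differed by −0.18 ± 0.07 and Atp5mg, a small membrane subunit, by −0.19 ± 0.08. The complex I subunits Ndufb8, Ndufb11 and Ndufa8 differed by −0.25 ± 0.09, −0.12 ± 0.05 and −0.15 ± 0.06. The brighter Ndufv3 probe set was the one higher in intact rats, by 0.18 ± 0.07. The dimmer one had means of 7.10 on Intact-named and 7.15 on OVX arrays after quantile normalization. The dimmer Uqcrc2 probe set, described further on, was among the lower ones. The adjusted p of the 6 genes named here was 0.161 to 0.198 in limma. The brighter Cox5a probe set of 2 symbols differed by −0.12 ± 0.05, and the single-symbol one overlapped between groups. In the same comparison 1 of 8 markers of cortex and hippocampus was called, higher in intact rats. The median of 7 dopamine neuron markers differed by −0.23, and 3 had an unadjusted p under 0.05, 1 higher and 2 lower (21.0% of all kept probe sets). So did 3 of 8 general neuron markers, 1 higher and 2 lower, and 3 of 7 microglia markers, all lower. Of 6 oligodendrocyte markers 0 did and 0 were above 0, with a median of −0.12. The part of these markers in the differences above was not tested.

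**Figure D3:**
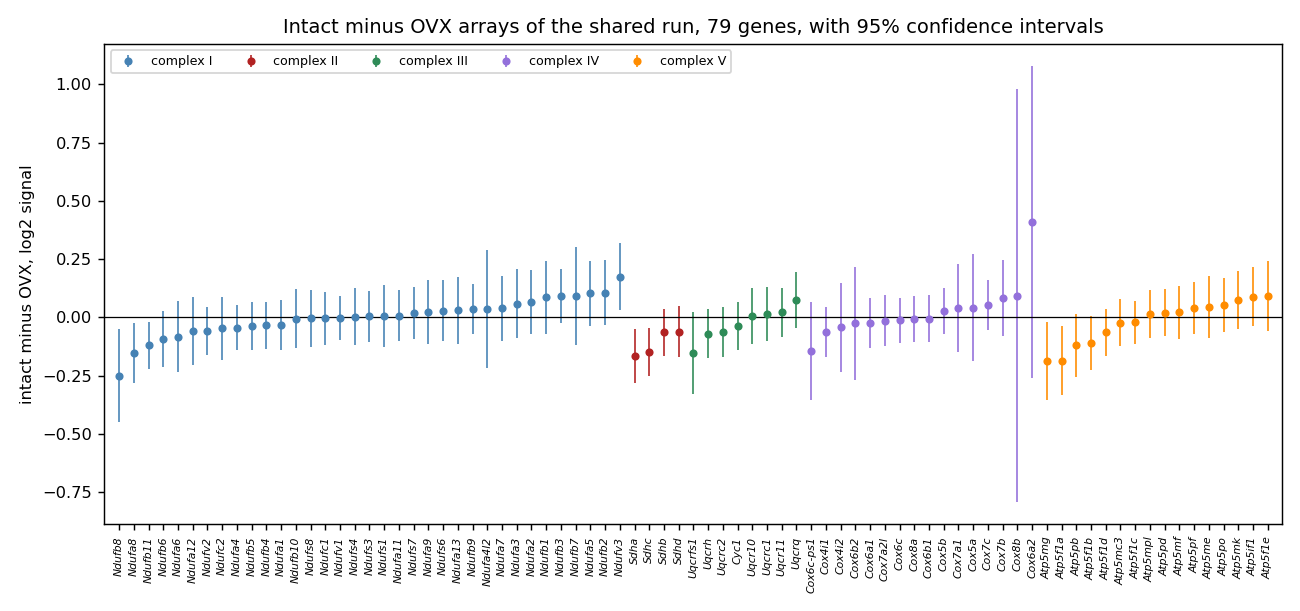
Intact-named minus OVX arrays for 79 genes, 6 arrays against 6, adjusted for mating. Points are log2 differences and bars 95% confidence intervals, ordered within each complex by size; the 4 genes of complex II all lie below 0, and Cox8b and Cox6a2 have the widest intervals.

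Whether the mating effect differed between intact and OVX rats was tested as an interaction within the shared run, intact minus OVX. Here too ovariectomy cannot be told apart from surgery, priming, cycle stage and the title code. None of the 87 members passed the adjusted threshold (0.00740% of all kept probe sets), and 1 had an unadjusted p under 0.05 (4.96% of all). This was Ndufa4l2, whose mating difference was larger by 0.61 ± 0.16 in intact rats (SE; limma adjusted p = 0.836). Its signals in OVX rats were 6.89, 6.72 and 6.72 in paced and 6.81, 6.74 and 6.59 in chamber-exposed animals, which overlapped. For Cox8b the term was 1.49 ± 0.72 (adjusted p = 0.992). For Ndufb10, the single-symbol Cox5a probe set and Atp5me it was 0.21 ± 0.11, −0.34 ± 0.20 and 0.18 ± 0.12. The brighter Cox5a probe set had −0.05 ± 0.11.

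The forms of complex IV subunits and Ndufa4 illustrate how unevenly the spread was shared out. The widespread Cox8a lay between 13.12 and 13.25 on the 6 Intact-named arrays, while Cox8b on the same arrays lay between 6.04 and 8.10. Cox6a1 lay between 12.63 and 12.86, and Cox6a2 between 6.39, on Intact-4, and 8.31. Ndufa4 lay between 13.18 and 13.26, and Ndufa4l2 between 6.31 and 7.25. On the number-named arrays the same restricted forms were steadier, with an SD of 0.13 for Cox8b, 0.14 for Cox6a2 and 0.14 for Ndufa4l2. Cox7a2l, which helps join complexes III and IV into supercomplexes, had an SD of 0.05 to 0.06 in each set, and Cox6b1, the widespread partner of Cox6b2, 0.03 to 0.06.

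**Figure D4:**
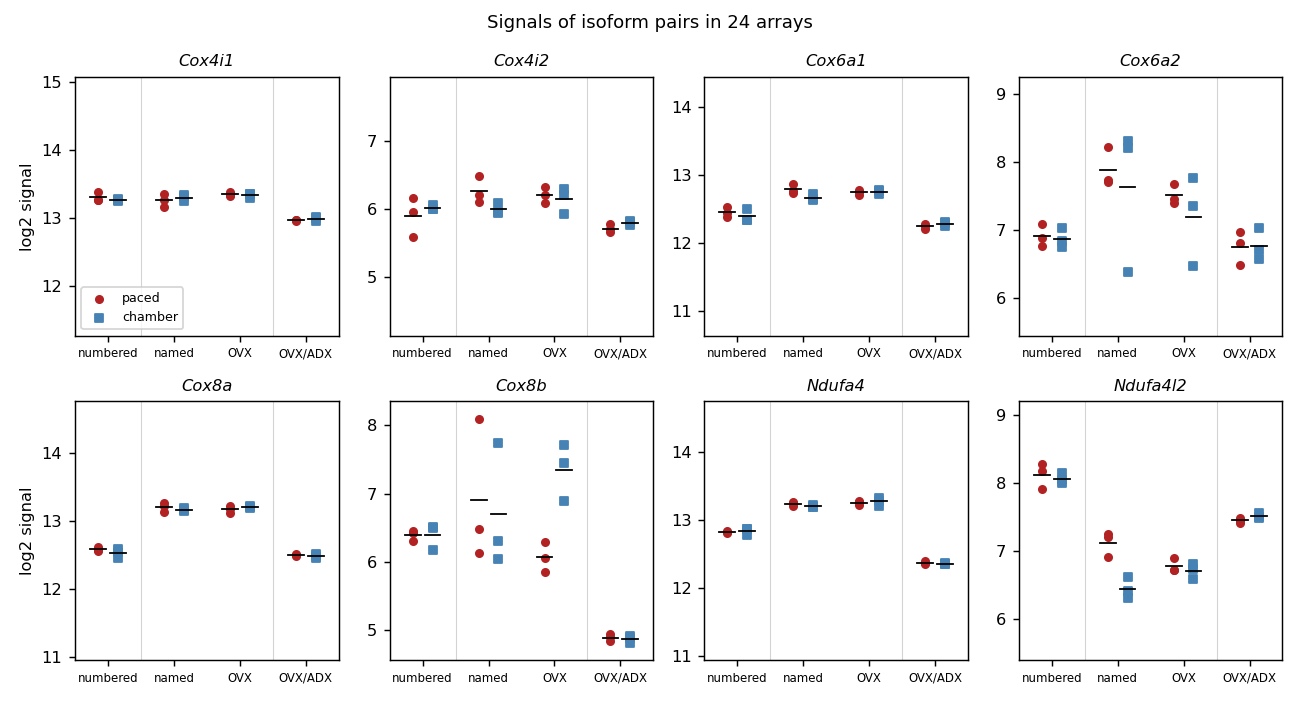
Signals of 4 pairs of widespread and restricted forms on 24 arrays. Points are single arrays (circles paced, squares chamber-exposed), short lines are means of 3, every panel spans the same number of log2 units, and grey lines separate the normalization runs; Cox8b, Cox6a2 and Ndufa4l2 spread widely on the Intact-named arrays, while Cox4i1, Cox6a1, Cox8a and Ndufa4 have an SD of at most 0.08 in every set.

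Between runs, values are given as a description with no test, after quantile normalization of the 24 arrays, since normalization, tissue and rats cannot be told apart. From number-named to Intact-named arrays, which are both labelled intact midbrain, 5 of 87 members (5.75%) differed by 1 or more, against 22.5% of all kept probe sets. The dimmer Uqcrc2 probe set was different by −3.17, Ndufb8, an accessory subunit of complex I, by −1.65 and Ndufa4l2 by −1.08. Cox6a2 differed by 1.08 and Uqcr11 by 1.01. Sdha differed by −0.75 while Sdhb, its partner in the matrix arm of complex II, differed by −0.08. These directions held in the deposited values and after subtracting array medians for all of these genes except Sdhb, which differed by 0.07 and 0.31 there. The median member differed by 0.06, and by 0.17 and 0.42 under those scalings, while the median of all kept probe sets was 0.03, −0.11 and 0.14.

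From number-named to OVX/ADX arrays, 1 of 87 members differed by 1 or more (1.15%, against 4.35% of all), and this was Cox8b, at −1.25. The median member differed by 0.07, by −0.34 in the deposited values (all kept probe sets −0.39) and by 0.03 after subtracting array medians, so its direction depends on the scaling. The sets on either side of the larger contrast are the ones whose dopamine neuron and cortical markers differed, with values below 0 for every dopamine neuron marker tested except Nr4a2 (1.76) and above 0 for every cortical marker tested except Tbr1 (−1.07). Th, the enzyme of dopamine synthesis, differed by −4.67 and Neurod6, a cortical transcription factor, by 3.39, and the part of tissue composition in the differences of members was not tested.

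**Figure D5:**
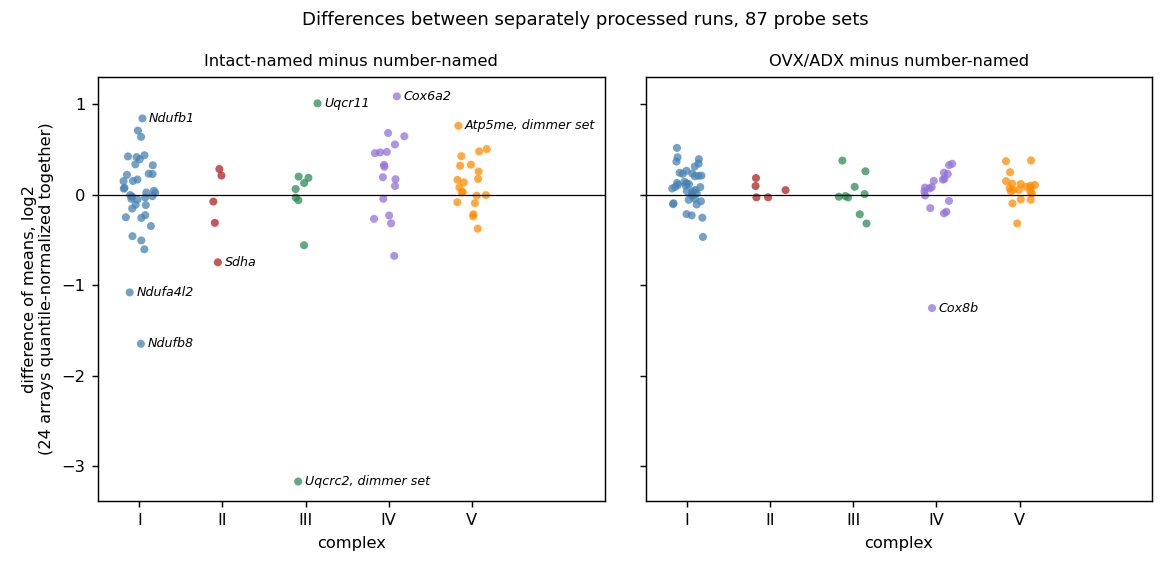
Differences between runs, as inferred from the lowest signals, for 89 probe sets, by complex. The points include Cox7b2 and the Atp5if1 probe set that the filter removed, while the 87 in the heading of the figure counts kept probe sets alone. Each point is the difference of mean log2 signals of 6 arrays against 6 after quantile normalization of all 24; the dimmer Uqcrc2 set, Ndufb8 and Ndufa4l2 fall furthest on the Intact-named arrays, and Cox8b on the OVX/ADX arrays.

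Probe sets of 1 gene could differ in behaviour. The brighter Uqcrc2 probe set, for a core protein of complex III, lay between 12.14 and 12.41 on all number-named, Intact-named and OVX arrays. The dimmer one lay between 11.35 and 11.56 on the number-named arrays, 7.28 to 9.15 on the Intact-named, 8.67 to 9.58 on the OVX and 10.55 to 10.80 on the OVX/ADX arrays. In the intact against OVX comparison the dimmer set differed by −0.83 ± 0.30 (SE; limma adjusted p = 0.153), whereas the brighter set did not reach an unadjusted p under 0.05. Arrays Intact-1 and Intact-2 held the 2 lowest values of their set for the dimmer Uqcrc2 probe set (7.28 and 7.76), for the dimmer Sdhd probe set (10.16 and 10.25) and for Sdha (11.17 and 11.19). The same arrays held the highest Cox8b values. For Sdhd, the membrane anchor of complex II, the brighter set was lower and the dimmer one higher on the number-named than the Intact-named arrays in deposited signal, and their differences, Intact-named minus number-named, were 0.29 and −0.26.

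Genes around oxidative phosphorylation were read from lists chosen for this comparison, of which none had a member past the adjusted threshold in any of the mating, gland or interaction comparisons. For mating over 24 arrays, 3 of 40 assembly factors had an unadjusted p under 0.05, all higher in paced rats: Ecsit (0.09 ± 0.04), Atpaf1 (0.11 ± 0.05) and Cox11 (0.16 ± 0.08). Of 17 genes of mitochondrial biogenesis 1 did, Twnk, the helicase of mitochondrial DNA, at 0.13 ± 0.04. There was 1 of 15 genes of the tricarboxylic acid cycle, Idh3a (0.07 ± 0.03), 1 of 27 carriers, import factors and shuttles, Ckmt1 (0.08 ± 0.03), and 0 of 14 genes of glycolysis and 0 of 10 antioxidant genes. These stand beside 4.19% of all kept probe sets.

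On the number-named arrays Ucp2, a carrier of the inner membrane, was −0.78 ± 0.18 in paced against chamber-exposed rats (limma adjusted p = 0.197) and Idh2 −0.24 ± 0.06 (adjusted p = 0.258). Those are the arrays on which pituitary markers were lower in paced rats, and the part of these was not tested. The paper lists Ucp2 and several pituitary hormone genes as up-regulated in paced mated intact rats, the opposite direction to these labels. The reason for the opposite direction was not tested. In intact against OVX rats, where 21.0% of all kept probe sets had an unadjusted p under 0.05, 4 of 17 biogenesis genes did, all higher in intact rats: Twnk (0.25 ± 0.06, adjusted p = 0.0683), Gabpb1 (0.18 ± 0.05), Yy1 (0.13 ± 0.05) and Ppargc1b (0.20 ± 0.08). Gabpb1 is a subunit of GABP, which binds the ETS motif, and Ppargc1b is a coactivator of mitochondrial genes. Of 10 antioxidant genes 4 did, all lower: Gpx1 (−0.31 ± 0.10), Gpx4, Prdx5 and Cat. Of the carriers and shuttles 6 of 27 did, with Vdac2, a channel of the outer membrane, at −0.17 ± 0.05 and Gpd2, of the glycerol phosphate shuttle, at 0.21 ± 0.07. There were 3 of 15 in the tricarboxylic acid cycle, 2 of 14 in glycolysis, with Ldhb and Aldoc lower, and 2 of 40 assembly factors.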

How the data were processed

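Total RNA of tissue labelled midbrain was measured on 24 Affymetrix rat arrays. The authors deposited log2 signals per probe set. Their processing notes list RMA and Affymetrix Expression Console 1.4, whereas GCRMA and GeneSpring are given in the published methods. The values were used as deposited. Either method normalizes the arrays of a run together, and its effect on dim probe sets was not tested. Precision is set by how many arrays there were.

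Of 31099 probe sets, 57 are controls. A probe set was kept where it reached its array's 20th percentile on 3 or more arrays, which left 27035. In the annotation 20826 probe sets other than controls carry 1 symbol, 436 several and 9831 none. A gene is represented by its brightest single-symbol probe set. Tests used limma 3.58.1 (lmFit and eBayes) in R 4.3.3, with Benjamini-Hochberg adjustment over all kept probe sets and a threshold of 0.05, after a check on simulated data. Groups came from the labels. Named are the 5 members with the smallest p where none passed, a list of core and restricted subunits, and up to 4 genes of each other list. The members and lists were chosen with earlier results of these data known. Alternatives covered the filter, quantile normalization, subtraction of array medians, a trended and robust eBayes, an unmoderated test for each probe set, the replicate block and leaving out each array. The titles' numbers of the Intact-named and OVX arrays did not pair the samples. Probe sets with several symbols were left out because their signal cannot be given to 1 gene.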

Additional observations from a re-analysis of the deposited data

Results flagged for a closer look

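In each set of 6 arrays, 40 member genes and the median over the members were checked for an array far from the others (a gap over 0.625 of the range), 164 checks in all, of which chance gives about 1 in 20. There were 12 such values, on 8 arrays. On array 2538 of the number-named set Ndufs1 was high at 11.40 (next 11.25), Cyc1 at 11.79 (next 11.69) and Cox4i1 at 13.38 (next 13.28), and on array 2543 Cox4i2 was low at 5.59 (next 5.96). Cox6a2 was low at 6.39 on Intact-4 (next 7.71) and at 6.47 on OVX-6 (next 7.35), both chamber-exposed. On OVX-4 Ndufv1 was low at 11.65 (next 11.69) and Cox6b2 at 5.93 (next 6.10), and on OVX-5 Uqcr10 was low at 12.48 (next 12.54). In the OVX/ADX set Sdhb was low at 11.59 (next 11.69) and Ndufa4 high at 12.40 (next 12.36) on array 4123, and Atp5f1a was low at 12.03 (next 12.11) on array 2541. In the tests of the mating effect by ovariectomy and by intact set no member passed the adjusted threshold (limma), with 1 and 3 at an unadjusted p under 0.05, and the mating effect in OVX/ADX rats was not tested against another group.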

How the results depend on the processing

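The count of members past the adjusted threshold was 0 in each of the 9 comparisons under each alternative run, including the unmoderated test and the trended, robust eBayes. The median member difference is close to 0 and leaving out 1 array moved it. In the Intact-named arrays it ran from 0.00658 to 0.0738, with the highest value without Intact-5 against 0.0319 with all 6, and in the interaction with ovariectomy from 0.0133 to 0.0872 against 0.0429. Its sign changed in the number-named arrays (−0.00078 to 0.0516), OVX arrays (−0.0165 to 0.0121), 24 arrays (−0.0013 to 0.0136), intact minus OVX (−0.0167 to 0.0065) and the test between intact sets (−0.0591 to 0.0129). The mating differences of the named members kept their sign in all but 1 case, Cox6a2 in OVX rats, which ran from −0.0493 to 0.603 when each array was left out, with −0.0493 without OVX-6. Cox8b in OVX rats ran from −1.52 to −1.11, and Ndufa4l2 in Intact-named rats from 0.61 to 0.78, with adjusted p from 0.139 to 0.998 over its alternatives. For Sdhc between intact and OVX rats the adjusted p ran from 0.0677 to 0.246. With the titles' numbers as a replicate block in that comparison, 0 members passed and 9 had an unadjusted p under 0.05, as without it, and the median member difference was −0.0031. Same-numbered arrays deviated together with correlations of 0.02 to 0.31, and 1 of 6 numbers correlated best with itself. The count of all probe sets called between intact and OVX arrays was 388, and it was 84 by the unmoderated test. Leaving out 1 array gave 0 to 443, with 0 without OVX-4, 27 without Intact-2, 33 without Intact-3, 88 without OVX-1, 104 without Intact-1, 137 without OVX-5, 146 without OVX-3 and 253 without OVX-2. Calls over all probe sets also moved in the number-named arrays, from 12 to 5 with the 50th percentile filter, 4 after quantile normalization, 19 after subtracting array medians, 18 by the trended eBayes and 0 by the unmoderated test, and to 58 without 2539, 55 without 2531, 7 without 2526, 3 without 2538 and 2 without 2543 or 2536. In the test between intact sets they moved from 22 to 33 after quantile normalization, 43 after subtracting array medians and 4 by the unmoderated test. Leaving out 1 array gave 9 to 346 there, with 346 without Intact-5, 330 without Intact-6, 47 without Intact-1, 13 without 2526 or 2536, 11 without Intact-4, 10 without 2538 or Intact-3 and 9 without 2543. Members with an unadjusted p under 0.05 went from 3 to 8 without Intact-5, and the share of all kept probe sets from 10.6% to 17.9%. The unmoderated test gave 0 in place of 4 in the Intact-named arrays and 1 in place of 2 in the interaction with ovariectomy, where leaving out 1 array gave 1 to 9, the highest without Intact-1. In the Intact-named arrays it gave 15 without Intact-1, 2 without Intact-4 or Intact-6 and 1 without Intact-2 or Intact-3. Without Intact-5, members with an unadjusted p under 0.05 went from 4 to 8 in these arrays and from 1 to 5 in that interaction. The share of all kept probe sets rose as well, from 8.00% to 12.9% and from 4.96% to 8.67%. The cause was not tested.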
